A study of Mus musculus with 12 samples.

Results

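Regulatory T cells (Tregs) of 3 libraries titled KO male were compared with those of 3 libraries titled WT male, gene by gene. The 6 libraries were taken by their titles from the 12 of the series, and 13692 of the 26609 genes in the count table had enough counts to be tested. RNA was sequenced from Tregs sorted as CD4+CD25hiCD127lo singlets out of mesenteric lymph nodes, although the source label calls the cells intestinal. All mice were of the SAMP/YitFC strain and untreated, and the KO mice carried a global loss of estrogen receptor beta (ERb-KO, gene Esr2), while their ages are not stated. The WT libraries were titled male 1, male 2 and again male 2, and are called WT S1, WT S2 and WT S3 here. The KO libraries, titled male 1 to 3, are called KO S7, KO S8 and KO S9. The model also held the other 6 libraries of the series, titled WT female and KO female, which lend their spread and serve in 1 comparison below. No label states how many mice the libraries stand for, so a p-value here measures the spread among the 12 libraries, which may be technical.

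Tregs are CD4 T cells that hold other lymphocytes in check, and they depend on the transcription factor Foxp3 and on interleukin-2, which they bind through the high-affinity receptor chain Il2ra. The SAMP strain is known for a spontaneous inflammation of the ileum that resembles Crohn's disease, and the mesenteric lymph nodes drain that tissue. Estrogen receptor beta is a nuclear receptor that binds DNA as a dimer when estradiol is bound and changes the transcription of nearby genes, as its paralog estrogen receptor alpha (Esr1) does.

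The targeted gene did not follow the titles. Esr2 (chr12:76120419-76177259 in RefSeq GRCm38.p6) had 0, 1 and 14 reads in WT S1, S2 and S3, and 8, 2 and 95 reads in KO S7, S8 and S9. In counts scaled to library size (CPM) the WT libraries were at 0, 0.0690 and 0.895 and the KO libraries at 0.646, 0.144 and 9.22. The highest Esr2 level thus stood in the library labelled KO S9, and the other KO libraries lay within the WT range. The log2 fold change of KO over WT was 3.32 ± 1.57 (SE), which did not pass the test (edgeR quasi-likelihood, adjusted p = 0.359). Where in the gene the deletion lies is not given in the labels, so reads from outside it would not check the genotype.

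Sex-linked transcripts differed among the KO libraries as well. Xist, the RNA that coats the silenced X chromosome of female cells, had 7, 16 and 0 reads in the WT libraries and 3864, 1016 and 6 reads in KO S7, S8 and S9. Reads of 4 genes on the Y chromosome (Uty, Kdm5d, Ddx3y and Eif2s3y) together came to 4639, 5312 and 6591 in the WT libraries, 0 in KO S7 and in KO S8, and 3313 in KO S9. All KO libraries are titled male, so KO S7 and KO S8 went against that title and KO S9 matched it. A titled KO value below therefore joins 2 libraries with Xist and no Y reads to 1 library with Y reads and the most Esr2, and directions are those of the library labels.

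**Figure D1:**
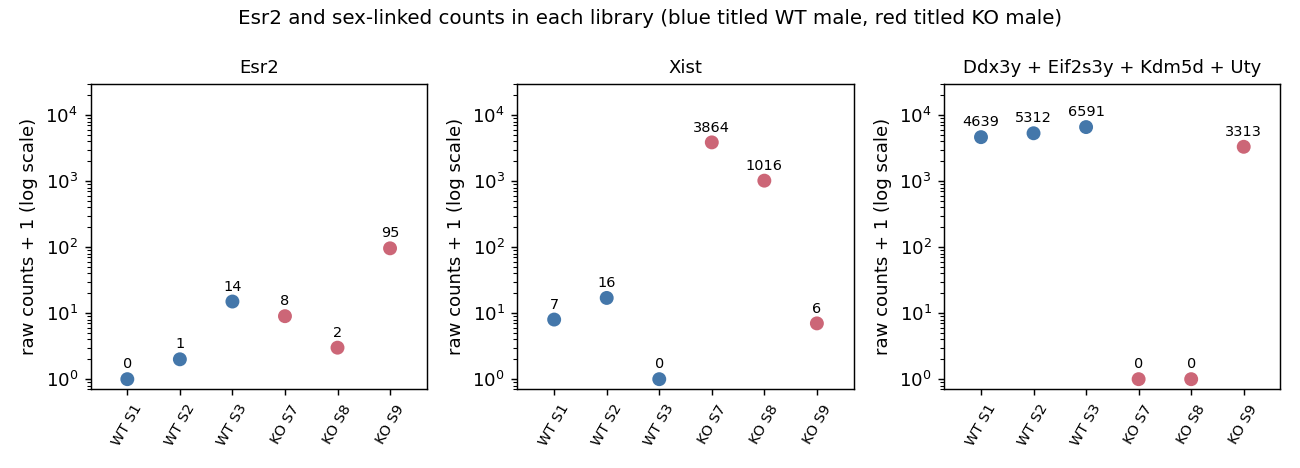
Raw counts of Esr2, of Xist and of the 4 Y-linked genes summed, plus 1 and on a log scale, in each library (blue titled WT male, red titled KO male). KO S7 and KO S8 show Xist and no Y counts, and KO S9 shows Y counts and 95 Esr2 reads.

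Depth ran from 14.5 M to 16.7 M counts in the WT libraries and from 10.2 M to 14.1 M in the KO libraries. Every KO library was thus less deep than every WT library. A count of 3 reads corresponded to 0.176 to 0.291 CPM. Unprocessed ribosomal RNA (Rn45s) was at 1644 to 2571 CPM in the WT libraries and at 2732 to 5650 CPM in the KO libraries. The nuclear RNA Malat1 stood at 11650 CPM in KO S7 and 8030 CPM in KO S9 but at 1664 CPM in KO S8, against 2558 to 5161 CPM in WT. The part of these values in the results below was not tested.

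The sorted cells carried the defining transcripts of Tregs under both titles. Foxp3 was at 690, 736 and 866 CPM in the WT libraries and at 617, 917 and 662 CPM in the KO libraries. Il2ra stood at 521, 799 and 1007 CPM in WT and at 671, 658 and 992 CPM in KO. The groups overlapped for both genes, and their log2 differences of -0.06 ± 0.20 and 0.00 ± 0.24 (SE) did not pass the test (edgeR, adjusted p = 0.917 and 0.997). Ctla4, the inhibitory receptor of Tregs, and Ikzf2, the transcription factor Helios, likewise overlapped, with log2 differences of -0.11 and 0.21. Il7r, whose protein (CD127) was gated low, was at 175 to 207 CPM in WT and 143 to 198 CPM in KO.

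Across the 13692 genes tested, 10 passed an adjusted p of 0.05 (0.073% of the genes). Of these, 8 were higher in the titled KO libraries (0.0584%) and 2 were lower (0.0146%). The median log2 difference over all genes was 0.01. At an unadjusted p under 0.05 there were 1947 genes (14.2%), 1084 of them higher and 863 lower. The count of calls is small and moves with the method and the libraries: DESeq2 called 420 genes (2.02% higher and 1.04% lower), limma voom called 0 (1826 at an unadjusted p under 0.05), and the edgeR fit called 0 without any 1 of WT S1, WT S2, WT S3, KO S7 or KO S9 (1359 to 2007 at an unadjusted p under 0.05) but 734 without KO S8. With WT S2 and WT S3, which share a title number, summed into 1 library, it called 0 (1589 at an unadjusted p under 0.05). All 10 genes kept their direction under each of the 23 alternatives run, which reuse these libraries. Each gene lost its call under some of them, from 8 for Cd22 to 13 for 2010001M09Rik.

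Genes of B cells made up the largest group among the 8 that rose. B cells recognise antigen through a surface immunoglobulin, whose signal CD22 restrains. Cd22 (chr7:30865404-30880342), which binds sialic acid, was at 2.63, 1.52 and 2.43 CPM in WT and 32.3, 28.6 and 53.5 CPM in KO. Ms4a1, the gene of the B cell surface protein CD20 (chr19:11249679-11266149), was at 1.70, 0.138 and 0.767 CPM in WT and 29.7, 10.1 and 42.3 CPM in KO. In both genes every KO library lay above every WT library, and KO S9 was the highest. The log2 fold changes were 4.11 ± 0.57 for Cd22 and 4.93 ± 0.75 for Ms4a1 (SE, edgeR, adjusted p = 0.0216 and 0.0234).

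Of the 20 B cell genes listed, 18 were tested, 3 rose (beside 0.0584% of all genes) and none fell. At an unadjusted p under 0.05, 15 of the 18 were higher and 0 lower, beside 7.92% and 6.3% of all genes tested. In 16 of the 18 every KO library was above every WT library, which held for 6.95% of all genes. The median log2 difference of the 18 was 3.02. Measured in each KO library against the WT mean, that median was 3.17 in KO S7, 2.67 in KO S8 and 2.97 in KO S9, so the libraries with Xist and the library with Y reads lay near each other. Summed over the tested list, B cell transcripts came to 97.0, 74.2 and 63.9 CPM in WT and 358, 257 and 427 CPM in KO, against 617 to 917 CPM for Foxp3 alone in KO. In bulk RNA more cells of a type and more RNA per cell cannot be told apart.

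Further members of that list stood just outside the threshold. Faim3, the receptor for IgM, was at 2.28, 2.34 and 1.92 CPM in WT and 23.1, 15.3 and 16.9 CPM in KO (log2 difference 3.07, edgeR adjusted p = 0.0536). Cr2, the complement receptor of mature B cells, was at 0.207 to 1.52 CPM in WT and 8.07 to 22.3 CPM in KO (adjusted p = 0.0572). Fcer2a, the low-affinity IgE receptor, ranged from 0.256 to 2.69 CPM in WT and from 13.9 to 21.0 CPM in KO (adjusted p = 0.0666). No WT and KO library overlapped in these 3 genes. Cd79b, the B cell antigen receptor subunit with the highest level in the list, showed a smaller difference: 27.8 to 48.6 CPM in WT and 54.1 to 76.7 CPM in KO. Pax5, the factor that fixes B cell identity, had no more than 0.117 CPM in WT and reached 0.970, 0.0720 and 0 CPM in KO S7, S8 and S9, and its groups overlapped.

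**Figure D2:**
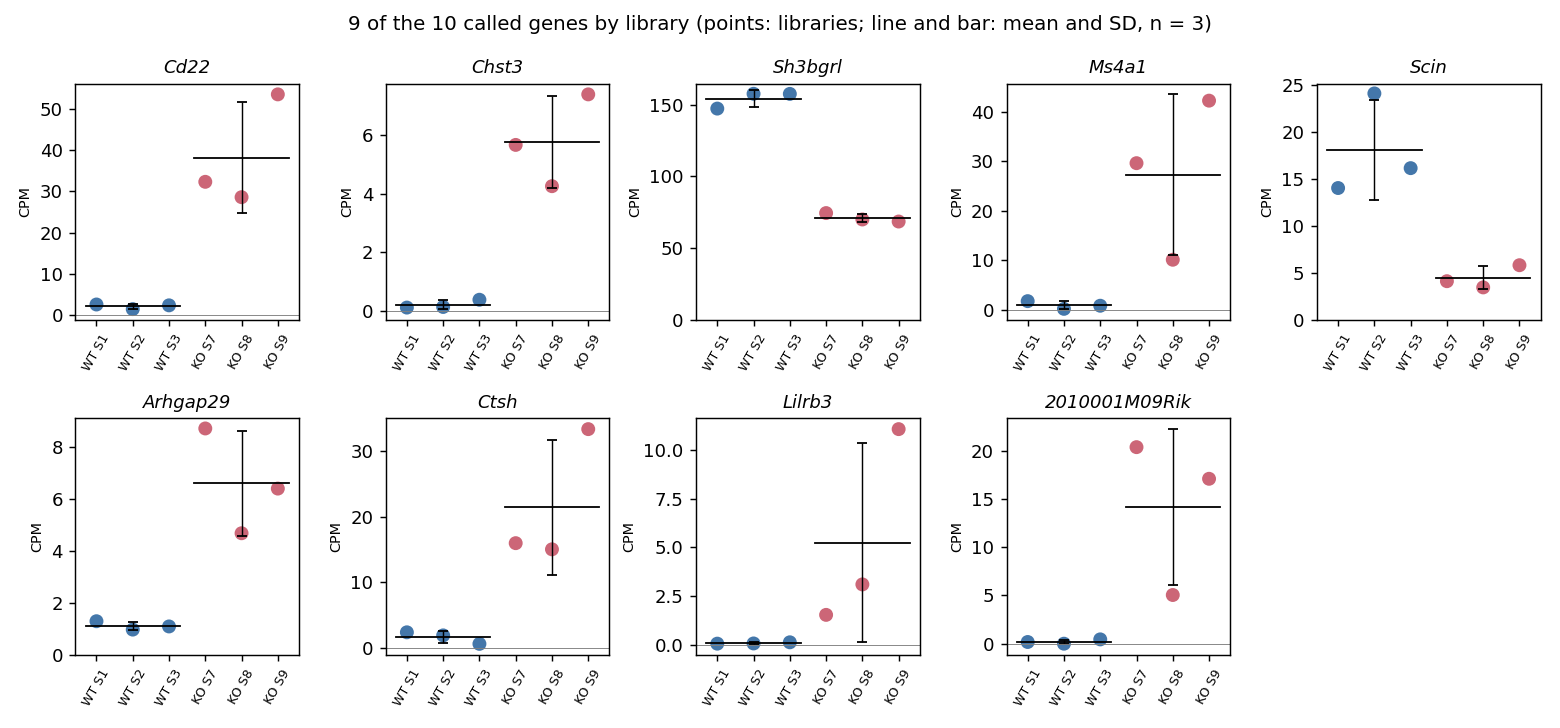
CPM of 9 of the 10 genes called between titled KO and titled WT male libraries (1 panel a gene, points are libraries, lines and bars the mean and SD of 3). In every panel the KO libraries lie entirely above the WT libraries, or, for Sh3bgrl and Scin, entirely below.

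Chst3 encodes a sulfotransferase that adds sulfate to chondroitin chains, and it lies at chr10:60181527-60222114. It was at 0.117, 0.138 and 0.383 CPM in the WT libraries and at 5.66, 4.25 and 7.38 CPM in the KO libraries. The groups were far apart and the KO libraries close together, for a log2 fold change of 4.70 ± 0.67 (SE, edgeR, adjusted p = 0.0216). The RefSeq start windows of the called genes (250 bases before to 50 after the start, GRCm38.p6) were searched on both strands for elements of estrogen receptors and of the B cell factor EBF1. Windows of 6 of the 10 called genes were searched. The chromosome of 2010001M09Rik was left out of the search, and the remaining called genes had no window in the set used. The full estrogen response element GGTCANNNTGACC occurred in 0 of these windows and in 0.07% of all 32851 windows of that length. Its half-site GGTCA occurred in windows of Arhgap29, Lilrb3, Cd22 and Scin and in 40.5% of all windows, and the full element would count as 2 of its matches. TCCCNNGGGA, the core that EBF1 binds, occurred in the Cd22 and Chst3 windows and in 0.904% of all windows. These matches describe letters in short windows and do not show binding.

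The 250 bases before the start are printed for both genes that rose and hold the EBF1-type core, and for both genes that fell. Capitals mark GGTCA, its reverse complement or TCCCNNGGGA. The windows are on the minus strand at chr7:30879029-30879278 for Cd22, chr10:60219261-60219510 for Chst3 and chr12:40134229-40134478 for Scin, and on the plus strand at chrX:109095157-109095406 for Sh3bgrl. Those of Cd22 and Chst3 lie inside the gene spans given above, so they belong to a start within the gene and not to its outer end.
Cd22: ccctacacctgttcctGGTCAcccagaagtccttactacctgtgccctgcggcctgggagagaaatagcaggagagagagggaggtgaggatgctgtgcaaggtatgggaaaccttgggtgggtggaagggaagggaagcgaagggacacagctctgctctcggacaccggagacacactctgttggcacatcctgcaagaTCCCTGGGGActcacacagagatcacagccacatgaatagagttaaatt
Chst3: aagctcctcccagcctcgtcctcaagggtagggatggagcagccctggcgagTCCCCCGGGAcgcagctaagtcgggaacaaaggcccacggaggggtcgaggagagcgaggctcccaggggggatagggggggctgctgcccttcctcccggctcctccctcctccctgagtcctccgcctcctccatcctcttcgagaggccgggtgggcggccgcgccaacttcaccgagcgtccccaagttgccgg
Scin: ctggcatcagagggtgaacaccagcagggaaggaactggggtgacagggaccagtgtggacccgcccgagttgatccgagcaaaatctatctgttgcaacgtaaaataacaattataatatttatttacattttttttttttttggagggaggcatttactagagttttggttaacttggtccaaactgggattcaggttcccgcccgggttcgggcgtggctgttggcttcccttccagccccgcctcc
Sh3bgrl: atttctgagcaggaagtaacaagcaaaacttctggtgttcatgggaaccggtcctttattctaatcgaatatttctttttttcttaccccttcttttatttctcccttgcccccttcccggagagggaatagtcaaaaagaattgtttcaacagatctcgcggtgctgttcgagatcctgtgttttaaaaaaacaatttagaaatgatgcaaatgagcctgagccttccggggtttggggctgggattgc
In the Cd22 sequence the half-site starts at base 17 and the EBF1-type core at base 202, counted from the 5′ end, and in Chst3 the core starts at base 53. The half-site of Scin starts at base 292 of its window and so lies after the printed stretch. Guanine and cytosine made up 55.2%, 69.6%, 49.2% and 42.4% of the printed bases, in the order above.

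The cathepsin gene Ctsh and the receptor gene Lilrb3, which stood in the list of macrophage and monocyte genes, also rose. Ctsh encodes a lysosomal cysteine protease (chr9:90054267-90076095) and was at 2.40, 1.93 and 0.639 CPM in WT and 16.0, 15.1 and 33.4 CPM in KO. Its log2 fold change was 3.68 ± 0.62 (SE, edgeR, adjusted p = 0.0477). Lilrb3, an inhibitory receptor for MHC class I found on B cells and myeloid cells (chr7:3712505-3720382), had 1, 1 and 2 reads in WT and was at 1.54, 3.10 and 11.1 CPM in KO. No WT library overlapped a KO library in either gene, and KO S9 was the highest in both. The fitted log2 fold change of Lilrb3, 5.79 ± 0.99 (SE, edgeR, adjusted p = 0.0477), rests on those few WT reads, and reads shared with its close paralogs may have been split.

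Of 20 macrophage and monocyte genes, 19 were tested, 2 rose (beside 0.0584% of all genes) and none fell. All 3 KO libraries were above all 3 WT libraries in 9 of the 19, beside 6.95% of all genes, and the median log2 difference was 1.82. Csf1r, the receptor for the macrophage growth factor, was at 3.81, 0.896 and 2.75 CPM in WT and 11.5, 31.2 and 38.1 CPM in KO (log2 difference 3.42, edgeR adjusted p = 0.0803). Apoe, the lipid carrier that macrophages secrete, was at 9.20 to 14.7 CPM in WT and at 40.5, 88.5 and 40.0 CPM in KO (adjusted p = 0.0794). Both were higher in each KO library without passing the test, and the order of the KO libraries differed between the genes. The list sum was 486, 495 and 419 CPM in WT and 625, 748 and 977 CPM in KO, and most of it in WT was the protease gene Ctss, at 381 to 426 CPM.

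Genes of MHC class II, which present peptides to CD4 T cells and are carried by B cells, dendritic cells and macrophages, were higher as a group although none passed the adjusted test. All 10 listed were tested, 8 had an unadjusted p under 0.05 and were higher (beside 7.92% of all genes), and 9 had every KO library above every WT library (beside 6.95%). Their median log2 difference was 1.78. Cd74, the invariant chain, was at 212, 213 and 197 CPM in WT and 579, 538 and 1019 CPM in KO (log2 difference 1.78 ± 0.37 SE, edgeR adjusted p = 0.0794). H2-Ab1, a class II beta chain, was at 30.03, 27.6 and 22.6 CPM in WT and 90.8, 91.3 and 142 CPM in KO (adjusted p = 0.0805). KO S7 and KO S8 were nearly level for both genes and KO S9 was higher. DESeq2 called 6 of the 10 as higher, beside 2.02% of all genes.

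The called plasma cell gene was 2010001M09Rik, also named Mzb1, which encodes an endoplasmic reticulum protein needed for antibody secretion (chr18:35647265-35650266). It had 0.176, 0 and 0.447 CPM in WT and 20.4, 5.04 and 17.1 CPM in KO, a fitted log2 fold change of 6.01 ± 1.03 (SE, edgeR, adjusted p = 0.0477). KO S8 was the lowest KO library and still well above WT. Igj, the joining chain of secreted IgM and IgA, followed the same order with 8.20, 13.0 and 0.767 CPM in WT and 238, 64.0 and 231 CPM in KO, but did not pass (adjusted p = 0.172). Xbp1, the secretory regulator that Tregs express as well, was level at 356 to 429 CPM in WT and 360 to 419 CPM in KO. Of 12 plasma cell genes 11 were tested, 1 rose (beside 0.0584% of all genes) and none fell.

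Arhgap29, a GTPase-activating protein that endothelial cells express, also rose (chr3:121953113-122016677). It was at 1.29, 0.965 and 1.09 CPM in WT and at 8.73, 4.68 and 6.41 CPM in KO, a log2 fold change of 2.56 ± 0.40 (SE, edgeR, adjusted p = 0.0257). The WT libraries were tightly grouped and no KO library came near them. It was the only called gene among 10 tested stromal and endothelial genes of 17 listed (beside 0.0584% of all genes called as higher). The summed CPM of that list was 97.7, 102 and 117 in WT and 142, 150 and 213 in KO. Pecam1, the endothelial adhesion molecule that many leukocytes also carry, made up most of these sums, at 87.4 to 105 CPM in WT and 116 to 159 CPM in KO. Cxcl13, the chemokine that draws B cells into follicles, was at or under 0.345 CPM in WT and at 1.21 and 0.360 CPM in KO S7 and KO S8, but at 26.6 CPM in KO S9.

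Markers of other cells were less uniform. Of the 9 lists of other cell types, 4 (B cell, MHC class II, macrophage and monocyte, stromal and endothelial) had summed CPM higher in all 3 KO libraries than in all 3 WT libraries, and the exact two-sided permutation p was 0.1 for each, the smallest that 3 against 3 allows (0.225 adjusted over the 9 lists). Dendritic cell genes summed to 340 to 462 CPM in WT and 351 to 465 CPM in KO, and CD8 and NK cell genes to 125 to 182 CPM and 178 to 191 CPM. Both lists overlapped between the titles. edgeR called no member of either, and DESeq2 called 1 dendritic cell gene as higher (beside 2.02% of all genes). Neutrophil granule genes were at the edge of detection: S100a9, the granule calcium binder, had 0 reads in every WT library and was at 0.727, 2.31 and 7.38 CPM in KO (not called, edgeR adjusted p = 0.0929). Of 11 tested neutrophil and mast cell genes edgeR called 0, and DESeq2 called 4 as higher (beside 2.02% of all genes). Plasma cell and erythroid sums overlapped too. The part of such cells in the other differences was not tested.

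**Figure D3:**
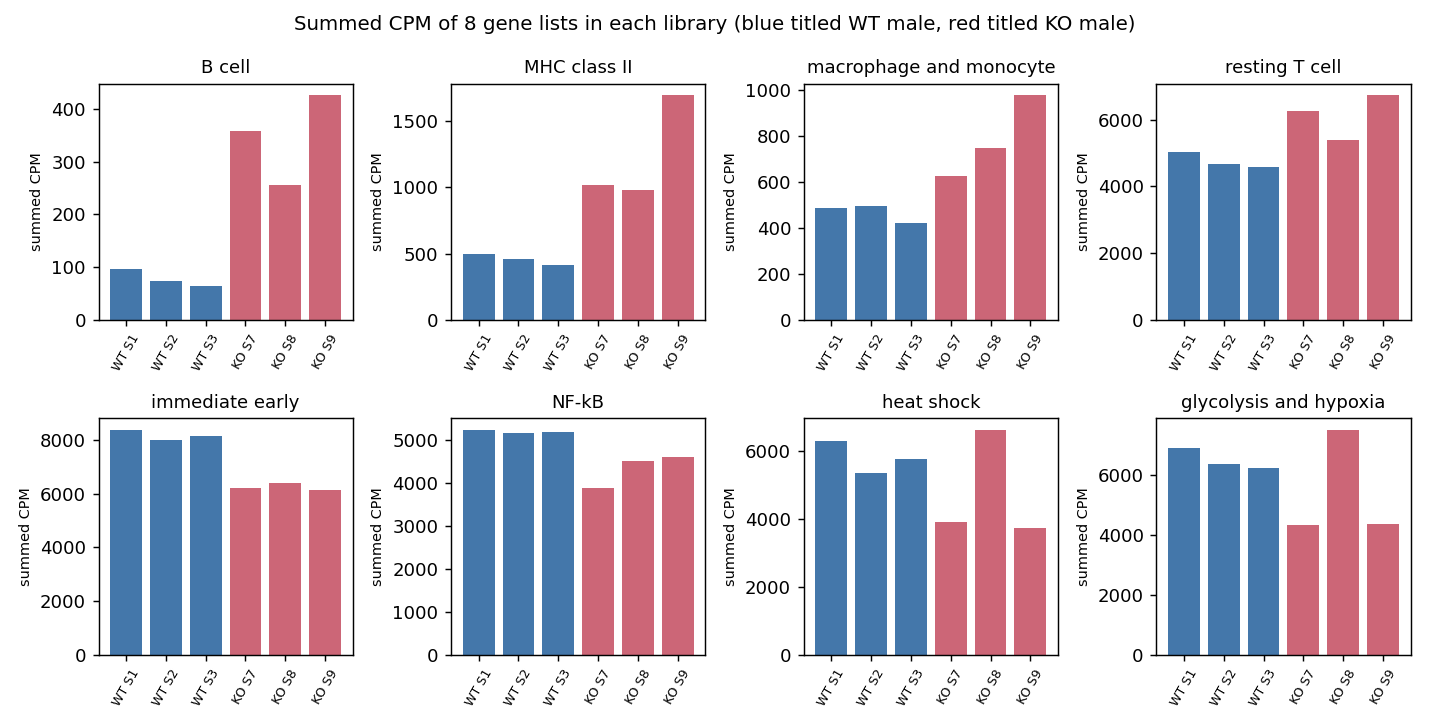
Summed CPM of all members found in the count table, tested or not, of 8 gene lists in each library (blue titled WT male, red titled KO male, bars from 0). B cell, MHC class II, macrophage and resting T cell sums are higher in all KO libraries, immediate early and NF-kB sums are lower in all, and heat shock and glycolysis sums are highest in KO S8.

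The gene Sh3bgrl fell by 1.12 on the log2 scale with the smallest standard error of the 10 called genes. It lies on the X chromosome (chrX:109095407-109162467) and encodes a small protein with a thioredoxin-like fold. Its level was 147, 158 and 157 CPM in the WT libraries and 74.4, 70.0 and 68.5 CPM in the KO libraries, so KO S9 was as low as the libraries with Xist (SE 0.17, edgeR, adjusted p = 0.0230). The paralog Sh3bgrl2 was at 45.5 to 54.9 CPM in WT and 14.9 to 29.6 CPM in KO without passing (log2 difference -1.08, adjusted p = 0.107).

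Scin, which encodes the calcium-dependent actin-severing protein scinderin of the gelsolin family, fell by 2.02 on the log2 scale (SE 0.31, edgeR, adjusted p = 0.0234). It lies at chr12:40059769-40134228 and was at 14.1, 24.1 and 16.2 CPM in WT and 4.12, 3.46 and 5.82 CPM in KO. No WT library overlapped a KO library, and the KO libraries were close to each other. Capg, a capping protein of the same family that is abundant in Tregs, was at 385 to 445 CPM in WT and at 264, 366 and 258 CPM in KO (log2 difference -0.51, adjusted p = 0.172). Among 13 tested actin and SH3BGR family genes of 14 listed, Sh3bgrl and Scin fell (beside 0.0146% of all genes) and none rose. That list was drawn up with earlier results of these data known, so the count is no separate support for either family. Of 146 genes tested within 10 Mb of Esr2, 0 were called, beside 0.073% of all genes, so this count says little about that region. Scin lies on the same chromosome outside that distance.

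Further genes were lower in every KO library without passing the threshold. Dcun1d1, which helps attach NEDD8 to cullins, was at 114, 107 and 111 CPM in WT and 68.4, 61.0 and 56.2 CPM in KO (edgeR adjusted p = 0.0536). Mzt1, a component of the microtubule-nucleating ring complex, was at 40.9 to 50.9 CPM in WT and 18.8 to 24.3 CPM in KO (adjusted p = 0.0536). Far1, the fatty acyl reductase of ether lipid synthesis, was at 133, 135 and 174 CPM in WT and 72.6, 78.5 and 94.6 CPM in KO (adjusted p = 0.0536). In these 3 genes the KO libraries lay close to each other whatever their sex-linked transcripts. Rnf2, a ubiquitin ligase of the Polycomb complex, Dynlt3, a dynein light chain, Stk17b, a kinase that restrains T cell activation, and Sept7, a septin, had log2 differences of -0.80, -0.95, -0.85 and -0.69 (adjusted p = 0.0536, 0.0536, 0.0572 and 0.0774). Nr1d2, a repressor of the circadian clock, was at 82.5 to 131 CPM in WT and 41.4 to 52.5 CPM in KO (adjusted p = 0.0762).

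Among the genes that were higher in every KO library without passing the threshold, several are not in the B cell list. Sox4, a transcription factor that TGF-beta induces in T cells, was at 8.96, 5.45 and 7.93 CPM in WT and 20.9, 18.9 and 27.3 CPM in KO (log2 difference 1.58, edgeR adjusted p = 0.0536). Il6ra, the interleukin-6 receptor chain, was at 75.6, 82.5 and 93.3 CPM in WT and 181, 123 and 191 CPM in KO (adjusted p = 0.0572). Neither gene overlapped between the titles, and in Il6ra KO S8 was nearest to WT. Tcirg1, a subunit of the proton pump of lysosomes, was at 55.4 to 65.6 CPM in WT and 98.2 to 130 CPM in KO (adjusted p = 0.0666), and Pla2g4b, a phospholipase A2, at 6.85 to 11.4 CPM and 19.0 to 23.5 CPM (adjusted p = 0.0572).

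Il6ra belonged to a list of genes that resting, recirculating T cells carry, of which edgeR called no member. All 22 listed were tested, 11 had an unadjusted p under 0.05 and were higher (beside 7.92% of all genes), and 11 had every KO library above every WT library (beside 6.95%). Their median log2 difference was 0.49, and in single KO libraries it was 0.55, 0.34 and 0.61. Lef1, a transcription factor of the Wnt pathway, was at 190, 180 and 151 CPM in WT and 349, 229 and 261 CPM in KO (edgeR adjusted p = 0.106). Igfbp4, a binding protein for insulin-like growth factors, was at 46.1, 27.2 and 12.8 CPM in WT and 187, 153 and 80.7 CPM in KO (adjusted p = 0.107). Ccr7, the lymph node homing receptor, was the highest of the list and overlapped, at 652 to 967 CPM in WT and 865 to 1093 CPM in KO. The list sum was 4577 to 5041 CPM in WT and 5389 to 6742 CPM in KO. DESeq2 called 7 of the 22 as higher, beside 2.02% of all genes.

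Neither edgeR nor DESeq2 called a gene of the Treg programs themselves. Over all genes edgeR called 0.073%, and DESeq2 called 2.02% as higher and 1.04% as lower, so lists this small would hold few calls. Without KO S8, edgeR called 1 core Treg gene as lower, beside 2.71% of all genes. The 20 core Treg genes were all tested, and their median log2 difference was 0.02, beside 0.01 over all genes. Socs2, a feedback inhibitor of cytokine signalling, was at 232 to 275 CPM in WT and 148 to 209 CPM in KO (edgeR adjusted p = 0.313). The 20 effector Treg genes had a median of -0.11. Prdm1, the factor Blimp-1 of effector Tregs and plasma cells, was at 65.2, 85.8 and 118 CPM in WT and at 61.8, 58.1 and 39.7 CPM in KO (adjusted p = 0.201). Its KO values all lay below WT by a small gap, with KO S9 the lowest. Th17 genes, 14 tested of 16, had a median of -0.21 and no called member. Their list sum was lower in every KO library, at 1448 to 1593 CPM in WT and 1209 to 1373 CPM in KO. Single members did not separate: 0 of the 14 had every KO library below every WT library, beside 7.45% of all genes. An unadjusted p under 0.05 was reached by 0 of them, beside 14.2% of all genes. The exact two-sided permutation p was 0.1, the smallest for 3 against 3.

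**Figure D4:**
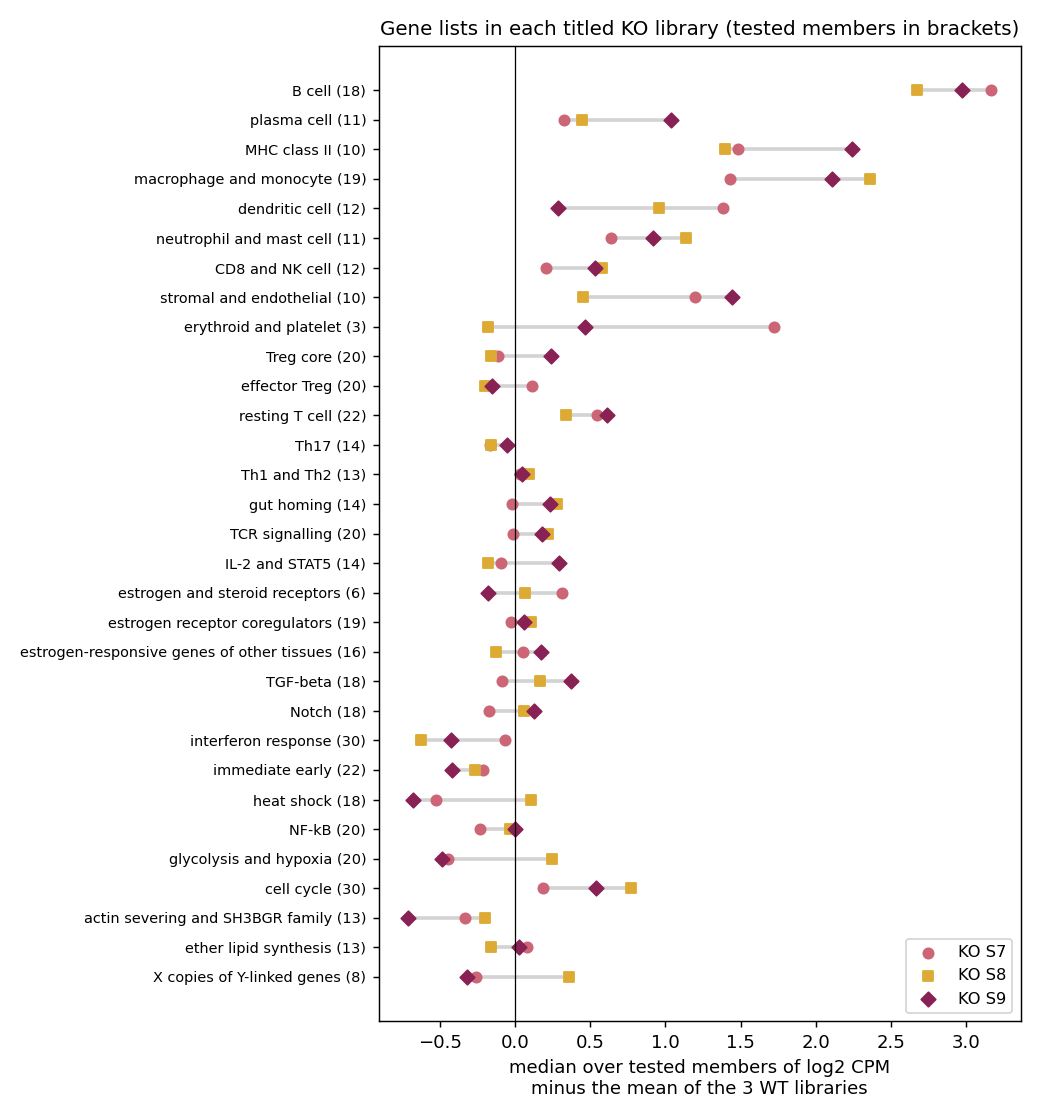
Median over the tested members of each gene list of the log2 CPM difference from the mean of the 3 WT libraries, for KO S7, KO S8 and KO S9 (grey lines join the 3 values). B cell medians are 2.67 to 3.17 in every KO library, while heat shock and glycolysis medians are negative in KO S7 and KO S9 and positive in KO S8.

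Genes that cells switch on within minutes of stimulation were lower in sum. The immediate early list summed to 8379, 7992 and 8147 CPM in WT and 6197, 6384 and 6142 CPM in KO, 2 groups that did not overlap (exact two-sided permutation p = 0.1, the smallest for 3 against 3). None of its 22 tested members of 23 was called by edgeR or DESeq2. In 8 of the 22 every KO library was below every WT library, beside 7.45% of all genes, and 5 had an unadjusted p under 0.05 and were lower, beside 6.3% of all genes. Cd69, the early activation antigen that also keeps lymphocytes in tissue, was at 277, 305 and 245 CPM in WT and 183, 189 and 176 CPM in KO (edgeR adjusted p = 0.174). Klf6, a zinc finger factor, was at 405 to 466 CPM in WT and 220 to 266 CPM in KO (adjusted p = 0.223). NF-kB genes also summed lower, at 5161 to 5235 CPM in WT and 3875 to 4603 CPM in KO, and 0 of 20 were called by edgeR or DESeq2. Tnfaip3, the feedback inhibitor A20, was at 538, 651 and 642 CPM in WT and 138, 432 and 169 CPM in KO (adjusted p = 0.320), with KO S8 nearest to WT.

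The library KO S8 parted from KO S7 and KO S9 in heat shock and glycolytic genes. Against the WT mean, the median of 18 heat shock genes was -0.53 in KO S7, -0.68 in KO S9 and 0.11 in KO S8, and the median of 20 glycolysis and hypoxia genes was -0.44, -0.49 and 0.25 in the same order. Ldha, the lactate dehydrogenase subunit, was at 1356 to 1803 CPM in WT, at 1029 and 944 CPM in KO S7 and KO S9, and at 1981 CPM in KO S8. With all libraries edgeR called none of these genes, and DESeq2 called 1 glycolysis and hypoxia gene as lower (beside 1.04% of all genes). Without KO S8, 5 of the heat shock genes and 3 of the glycolysis and hypoxia genes were called as lower, beside 2.71% of all genes. KO S8 was the library seen to differ in these same lists, so those calls are no separate support for a fall. Not every member followed that split. Hif1a, the hypoxia factor, was lower in each KO library: 460, 516 and 630 CPM in WT and 282, 382 and 319 CPM in KO (edgeR adjusted p = 0.0992).

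Of 30 genes of cell division, all tested, edgeR called none and DESeq2 called 2 as higher (beside 2.02% of all genes). Their median log2 difference was 0.48, at 0.18, 0.77 and 0.54 in KO S7, S8 and S9, and 10 of the 30 had every KO library above every WT library, beside 6.95% of all genes. Mki67, which encodes the Ki-67 antigen of dividing cells, was at 17.1, 32.3 and 22.6 CPM in WT and 37.7, 40.5 and 44.0 CPM in KO (edgeR adjusted p = 0.173). Cenpf, a kinetochore protein, was at 1.28 to 2.48 CPM in WT and at 12.7, 3.46 and 11.6 CPM in KO (adjusted p = 0.0805). Summed over the list, where the replication genes weigh most, the groups overlapped at 1298 to 1455 CPM in WT and 1094 to 1997 CPM in KO.

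In the estrogen pathway itself edgeR called no gene. DESeq2 called 1 receptor coregulator as lower (beside 1.04% of all genes) and 1 estrogen-responsive gene as higher (beside 2.02%). Esr1, the other estrogen receptor, was at 3.86, 1.24 and 2.56 CPM in WT and 2.42, 3.39 and 0.679 CPM in KO, and KO S9, the library with the most Esr2, had the least (log2 difference -0.23, edgeR adjusted p = 0.899). Of 19 receptor coregulators the nearest was Ncoa7, a coactivator of estrogen receptors, at 200, 207 and 194 CPM in WT and 114, 95.7 and 135 CPM in KO (log2 difference -0.80, adjusted p = 0.0929). It was lower in each KO library and the WT values were nearly level. Of 16 tested genes known to respond to estrogen in other tissues, Igfbp4, described above, and Stc2, a secreted glycoprotein at 1.93 to 2.56 CPM in WT and 4.39 to 7.35 CPM in KO (adjusted p = 0.201), were higher in every KO library. Such genes made up 12.5% of the 16, beside 6.95% of all genes, and so few do not set the list apart. The median of these 16 was 0.02.

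In signalling pathways that shape Tregs, edgeR called 0 of 18 tested TGF-beta genes and 0 of 18 tested Notch genes. DESeq2 called 1 TGF-beta gene as higher and 1 as lower, and 1 Notch gene as lower (beside 2.02% of all genes higher and 1.04% lower). Smad4, the shared partner of the TGF-beta signalling proteins, was at 205, 167 and 225 CPM in WT and 80.4, 158 and 102 CPM in KO (edgeR adjusted p = 0.108), again with KO S8 closest to WT. Adam10, the protease that cleaves Notch, was at 181, 188 and 301 CPM in WT and 125, 143 and 153 CPM in KO (adjusted p = 0.140). Both genes had every KO library below every WT library. Interferon response genes, all 30 tested, had a median of -0.37. edgeR called none of them and DESeq2 called 1 as lower (beside 1.04% of all genes). Ifit2, an antiviral protein, was at 57.9 to 77.3 CPM in WT and 37.1 to 41.8 CPM in KO (adjusted p = 0.116), and Cmpk2, a mitochondrial nucleotide kinase, at 41.5 to 66.1 CPM and 23.6 to 25.4 CPM (adjusted p = 0.185).

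Whether the titled KO difference itself differed from that between titled KO and WT females was tested with an interaction term over all 12 libraries. In edgeR 0 of 13692 genes passed (0%), and 659 (4.81%) had an unadjusted p under 0.05. DESeq2 called 3 genes: Cd22 and Arhgap29, with a difference larger in the male titles by 3.20 and 2.53 on the log2 scale, and Cmpk2, with -2.51. Esr2 did not follow the female titles either. It was at 0, 8.79 and 12.3 CPM in WT S4, S5 and S6 and at 8.05 to 11.7 CPM in the KO female libraries, and WT S5 and KO S10 carried Y reads and almost no Xist. The fitted female differences of the called genes were smaller for those that rose, such as 1.55 for Ms4a1, 0.91 for Cd22 and 0.04 for Arhgap29, and -1.96 for Scin, close to its male value of -2.02. The interaction had an adjusted p of 0.900 for Ms4a1 and 0.988 for Scin, so neither likeness nor difference was shown. On simulated counts this test recovered 14 of 100 genes with a 2-fold change and 65 of 100 with a 4-fold change.

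Counted gene by gene, the 3 KO libraries departed from the WT libraries to different extents. Among 12335 genes of at least 1 CPM, KO S9 had 743 genes more than 2-fold above the highest WT male value and 510 more than 2-fold below the lowest. KO S7 had 510 and 261 such genes, and KO S8 had 176 and 197. The WT female libraries, outside the comparison, had 56 to 222 above and 106 to 133 below. The KO female libraries, also outside it, had 165 to 309 above and 114 to 476 below. Across 11979 genes the log2 difference ran with the GC content of the transcripts (Spearman correlation 0.31, a description over genes, which are not independent), and in single libraries the correlation was 0.11 in KO S7, 0.44 in KO S8 and 0.16 in KO S9. The 200 genes with the smallest p had a median GC content of 54.0% where higher and 41.9% where lower, against 49.6% over all genes. With the trend of each library on GC content and length removed, 9 genes were called (0.0511% higher and 0.0146% lower), all of them among the 10.

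**Figure D5:**
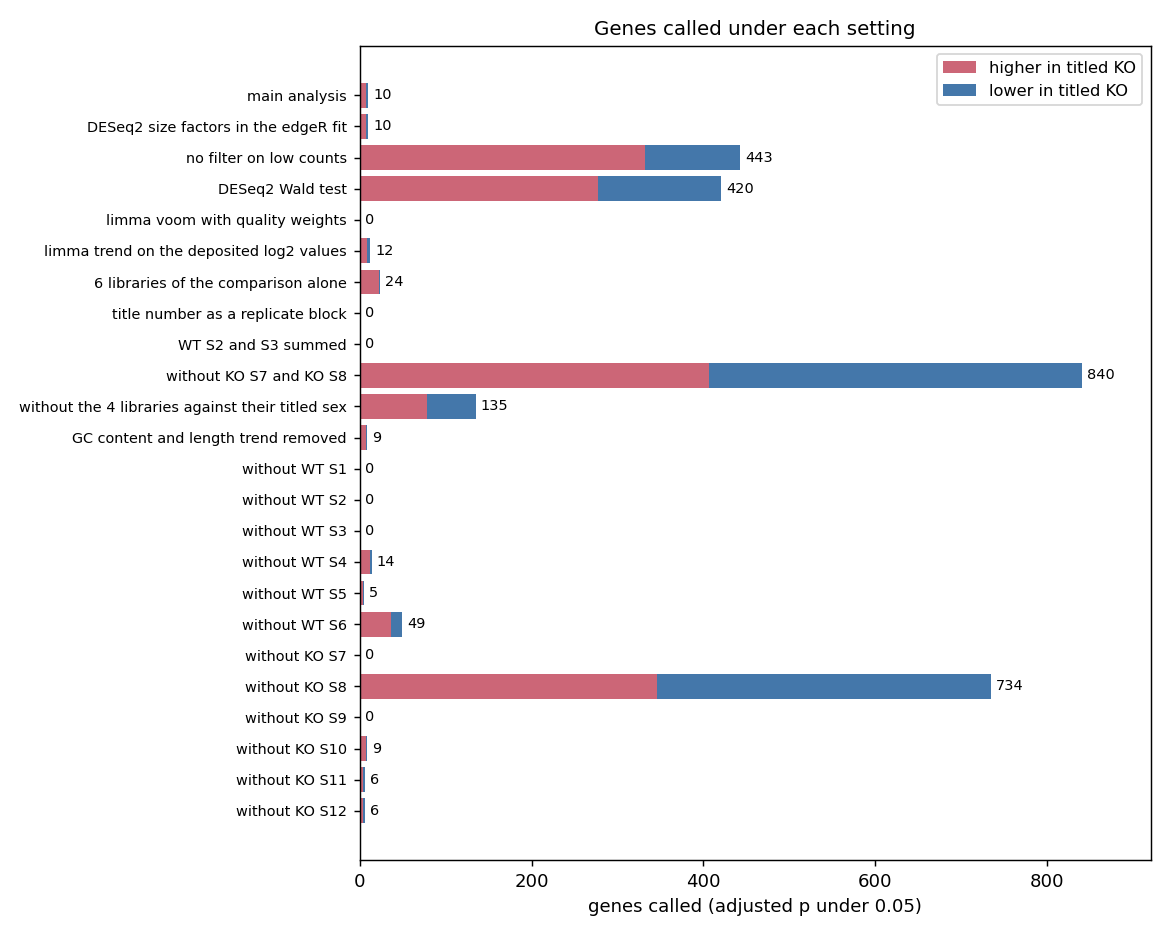
Number of genes called (adjusted p under 0.05) between titled KO and titled WT males under each setting, red higher and blue lower in the titled KO. The count is 10 in the main analysis, 0 without WT S1, WT S2, WT S3, KO S7 or KO S9, and 734 without KO S8.

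Leaving out KO S8 changed the calls most among single libraries. Without it, 346 genes were called as higher (2.42%) and 388 as lower (2.71%), all 10 genes above among them, and 9 of the 18 B cell genes and 6 of the 10 MHC class II genes were called as higher. Without KO S7 and KO S8, which leaves KO S9 as the lone KO male library and takes its spread from the other groups, 407 were called as higher (2.63%) and 433 as lower (2.8%). In that fit 10 of 18 B cell genes rose and the median of the list was 2.97, while Foxp3 and Il2ra were not called. With the 6 libraries alone, 23 genes were called as higher (0.179%) and 1 as lower (0.00778%), 8 of the B cell genes among them.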

How the data were processed

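The members and gene lists were chosen with earlier results of these data known. The submitters' processing notes name edgeR, Subread, featureCounts 1.5.0-p2 and HISAT2 2.0.5 and the build GRCm38. For the annotation release and for the strand setting, the sources used here give nothing. Per the labels' protocols, cDNA came from SMART-Seq v4 and libraries from Nextera XT, which does not mark strand, so a gene and its antisense partner cannot be told apart. The authors deposited raw counts per gene symbol, and log2 values for 24584 genes. These deposited log2 values matched log2 CPM recomputed from the counts with a prior count of 0.25 to within 5e-14.

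Groups came from the sample titles. Counts of all 12 libraries were filtered with filterByExpr, which kept 13692 genes, which held 99.8% or more of any library's counts. They were scaled by trimmed mean of M values (TMM) and fitted with edgeR's robust quasi-likelihood model of 4 group means (R 4.3.3, edgeR 4.0.16). Tests were two-sided with Benjamini-Hochberg adjustment over all genes and a threshold of 0.05, and "called" means past it. The biological coefficient of variation was 29.3%. CPM use TMM-scaled totals, and log2 values of single libraries a prior count of 2. On simulated counts the male comparison recovered 46 of 100 genes with a 2-fold change and 85 of 100 with a 4-fold change, and called 4 unchanged genes. WT S2 and WT S3 share a title number but differed beyond counting noise (chi-square per degree of freedom 38.0, against 23.9 and 65.2 for the other WT pairs), so they are not copies of 1 library. Each was counted as a sample because the labels list it as one. This does not show that they came from separate mice.

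The named genes are Esr2, Esr1, 5 Treg genes, Xist, the Y-linked genes, all called genes, the 12 genes in each direction with the smallest p that were not called, averaged at least 1 CPM and did not overlap between groups, and in each list the 4 members with the smallest p and the one with the highest CPM. Pax5, Malat1 and Rn45s lie outside this rule and were chosen after their values were seen. The values of 1 called gene are not reported here. Of 546 list entries 543 were in the table, some under older symbols, and 96.6% of the tested genes matched RefSeq (GRCm38.p6), which gave positions and start windows. GC content and length came from GENCODE M21 transcripts. Alternatives were DESeq2 1.42.0 and its size factors, limma 3.58.1 (voom, and trend on the deposited log2 values), no filter, the 6 libraries alone, a block, summed libraries and each library left out. The fits with GC content and length removed, and the list values without KO S7 and KO S8, were chosen after seeing the data.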

Additional observations from a re-analysis of the deposited data

How the results depend on the processing

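The 10 called genes kept their direction under all 23 alternatives, which reuse the same libraries, but each lost its call under 8 to 13 of them. The number of genes called between titled KO and titled WT males was 10. It was 443 with no filter on low counts (332 higher, 111 lower), 420 by DESeq2 (277 higher, 143 lower), 24 with the 6 libraries alone, 840 without KO S7 and KO S8, and 135 without the 4 libraries whose sex-linked transcripts went against their titles (WT S5, KO S7, KO S8 and KO S10). It was 0 by limma voom (1826 at an unadjusted p under 0.05), 0 with WT S2 and WT S3 summed (1589), and 0 with the title number as a replicate block (1274). Deviations of same-numbered libraries correlated at 0.11, -0.07 and 0.07, and some other pairs at -0.01, 0.09 and 0.09. With so few pairs, and WT S2 and WT S3 both set against KO S8, these values cannot decide whether the numbers pair the libraries. With 1 library left out at a time the count ran from 0 to 734. It was 0 without WT S1, WT S2, WT S3, KO S7 or KO S9, 5 without WT S5, 6 without KO S11 or KO S12, 49 without WT S6 and 734 without KO S8. The cause was not tested.

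The interaction gave 0 calls with edgeR, limma and the block (372 at an unadjusted p under 0.05 with the block), 106 with no filter, 3 by DESeq2, 18 without KO S7 and KO S8, and 0 to 4 with single libraries left out: 1 without WT S6 (Ppp1r15a) and 4 without KO S8 (Plekhm3, Utrn, Akap9 and Gm17739).

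Of the 46 genes named outside the lists, 9 changed direction under at least 1 alternative, and none of these 9 was called. Il2ra, at 0.00, was 0.013 with DESeq2 size factors and by DESeq2, 0.037 by voom, 0.015 by trend, 0.060 with the block, 0.11 with WT S2 and WT S3 summed, 0.34 without KO S7 and KO S8, 0.33 without the 4 libraries, 0.13 with the GC trend removed and -0.23 to 0.23 with single libraries left out. Il7r was 0.028 without KO S7 and KO S8, 0.014 without the 4 libraries and 0.077 with the GC trend removed. Ctla4 was 0.10 with the GC trend removed, and Ikzf2 -0.0071 by trend and -0.089 to 0.61 with single libraries left out. Without KO S7 and KO S8, and without the 4 libraries, Eif2s3y was 0.15 and 0.13, Kdm5d 0.28 and 0.26, and Uty 0.49 and 0.48. With single libraries left out, Esr1 ran from -0.70 to 0.19, Foxp3 from -0.26 to 0.046 and Esr2 from 0.27 (without KO S9) to 6.31 (without WT S3). Esr2 passed with no filter (adjusted p = 7.73e-06) and under no other alternative. DESeq2 gave no adjusted p for Eif2s3y.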
